A study of Mus musculus with 2 samples.

Results

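Protease inhibitor genes associated with effector lymphocytes were followed in CD8 single-positive thymocytes, the thymic cells that have settled on the CD8 lineage. The 5 genes, Ctla2a, Serpinb9, Serpina3f, Serpina1c and Stfa1, were taken by symbol from the 789 genes named in the authors' deposited table, which holds probe sets that differ by at least 2-fold between genotypes. They were thus selected on the measured difference between genotypes, and their differences are given as a description, with no test. RNA came from 8-week-old CIITAtgpIV-/- mice on the B6 background and from B6 wild-type (WT) mice of the same age, with thymuses of 2 to 4 animals of 1 genotype pooled for 1 array. The genotype name denotes a transgene for CIITA, the transactivator of MHC class II genes, and loss of promoter IV of Ciita. The labels name no promoter or cell type for the transgene and state that mutants were recognised by flow cytometry. Ciita, Cd8b1 and Cd4 have no named probe set in the files used here, so neither the altered gene nor the sort could be checked on these transcripts. With 1 array a group, no difference below has a replicate check, the number of arrays limits the precision, and no p-value is given.

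Cytotoxic lymphocytes carry proteases in their granules and lysosomes, and they make inhibitors that limit the damage those enzymes do inside the cell. Serpins trap serine proteases by offering a reactive loop as bait and then locking the enzyme in an inactive complex. Cystatins and stefins block the active site of cysteine cathepsins, and the Ctla2 proteins of mice resemble the propeptide that keeps cathepsins of the L type inactive.

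Ctla2a was far higher in CIITAtgpIV-/- thymocytes, and the other 4 genes differed by close to 2-fold. Serpinb9, Serpina3f and Serpina1c were 2.04-fold, 2.12-fold and 2.01-fold higher, and Stfa1 was 2.01-fold lower. Of the 28560 probe sets in the identifier range of the authors' deposited table, 3.51% differed by at least 2-fold, 0.977% higher and 2.54% lower in CIITAtgpIV-/-. The rule fixed that all 5 genes lie past this threshold, so their count says nothing beyond it. The median difference of the 5 genes was 1.03 on the log2 scale, and that of the 28560 probe sets was 0.03. The selection bounds the first median too, since 4 of the 5 genes were at least 2-fold higher, so it shows no shift of the group.

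Levels are log2 signals per probe set, and each of the 5 genes had 1 probe set. A signal was called past the floor when the higher of both arrays reached 5.42, the median of that value over all 35556 probe sets. Ctla2a and Serpinb9 passed it in CIITAtgpIV-/-, while their WT signals of 5.31 and 5.34 lay below it. Serpina3f, Serpina1c and Stfa1 stayed below it in both genotypes, where the summarised signal compresses differences. The link to effector lymphocytes rests on what is known of the genes, and Serpina1c and Stfa1 are better known from liver and from neutrophils.

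**Figure D1:**
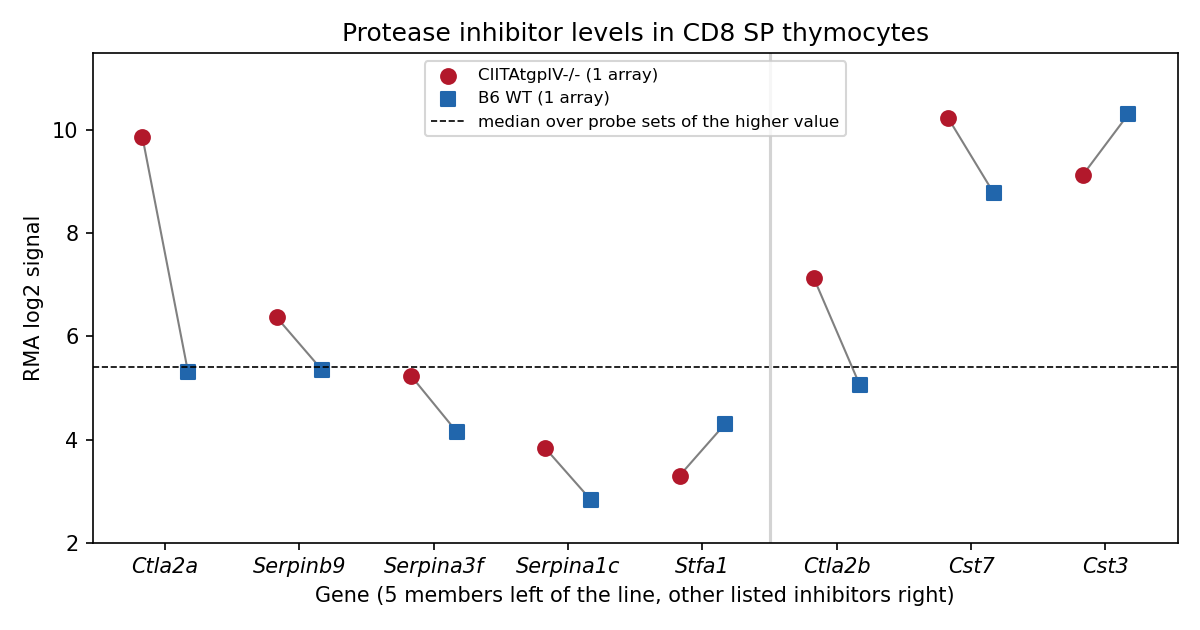
RMA log2 signal (vertical axis) of each gene in the CIITAtgpIV-/- array (circles) and the B6 WT array (squares), joined by a line. Ctla2a lies at 9.88 in CIITAtgpIV-/- and 5.31 in B6 WT, while Serpina3f, Serpina1c and Stfa1 lie below the dashed line at 5.42 in both.

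Ctla2a encodes a small inhibitor of cysteine cathepsins, first described in activated mouse T cells. Its log2 signal was 9.88 in CIITAtgpIV-/- and 5.31 in WT, a difference of 4.57 or 23.7-fold. In CIITAtgpIV-/- 95.4% of all probe sets lay below it, against 51.7% in WT, so a transcript near the middle of the WT array was among the bright ones of the CIITAtgpIV-/- array. Its increase ranked 5 among the 279 probe sets at least 2-fold higher. All 14 probes of the set were assigned to the transcript, which the file places on the minus strand of chromosome 13 (61036134 to 61037912, build not given).

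The neighbouring paralog Ctla2b, which encodes a related cathepsin inhibitor, was also higher. Its signal was 7.13 in CIITAtgpIV-/- and 5.07 in WT, a difference of 2.06 or 4.17-fold, from 8 probes. In the file's coordinates Ctla2b (60997376 to 60998075) ends 38.1 kb from Ctla2a on the same strand, and no other listed probe set lies within 1 Mb of Ctla2a. The 2 genes are close copies, so signal could be shared between their probe sets, and how far each transcript gave its own signal was not tested. The authors' cross-hybridisation column reads FALSE for Ctla2a. It reads FALSE for all 5 genes, also for Serpina3f with 22 of 44 probes assigned, so it does not settle whether signal is shared.

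Promoter windows are shown for Ctla2a and Ctla2b because these neighbours were higher together, and for Serpina3f because it holds the same STAT motif as Ctla2a. Each window runs from 250 bases before to 50 bases after the annotated start, 5′ to 3′ on the gene's strand, from RefSeq on GRCm38.p6. All 5 genes matched the RefSeq promoters by symbol. Ctla2a and Serpina3f have 2 windows each, of which the first was used and the other is not described. Capitals mark matches to the STAT element GAS (TTCNNNGAA, 9 letters) and to the AP-1 element (TGACTCA, 7 letters), and in Ctla2b the 9 bases aligned with the GAS match of Ctla2a.
Ctla2a, chr13:60936576-60936875, minus strand: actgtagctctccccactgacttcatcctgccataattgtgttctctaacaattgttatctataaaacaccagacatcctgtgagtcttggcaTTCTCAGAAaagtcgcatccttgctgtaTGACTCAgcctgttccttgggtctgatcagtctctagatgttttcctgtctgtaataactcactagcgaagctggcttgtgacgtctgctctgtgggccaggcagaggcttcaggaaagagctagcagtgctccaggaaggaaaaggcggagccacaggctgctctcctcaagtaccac
Ctla2b, chr13:60897398-60897697, minus strand: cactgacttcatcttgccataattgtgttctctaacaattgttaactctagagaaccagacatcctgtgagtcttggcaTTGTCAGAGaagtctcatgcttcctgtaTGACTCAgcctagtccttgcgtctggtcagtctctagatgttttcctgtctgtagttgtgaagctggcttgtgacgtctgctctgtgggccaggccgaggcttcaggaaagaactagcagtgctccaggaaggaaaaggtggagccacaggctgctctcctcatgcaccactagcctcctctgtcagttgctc
Serpina3f, chr12:104214294-104214593, plus strand: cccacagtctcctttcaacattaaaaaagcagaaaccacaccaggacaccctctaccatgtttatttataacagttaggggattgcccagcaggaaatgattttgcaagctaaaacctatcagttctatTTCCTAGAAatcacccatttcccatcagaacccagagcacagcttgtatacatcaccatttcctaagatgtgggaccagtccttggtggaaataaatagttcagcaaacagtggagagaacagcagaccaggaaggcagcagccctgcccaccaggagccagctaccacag

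The Ctla2a and Ctla2b windows aligned over 278 base pairs, of which 256 were identical, or 92.1%, leaving 8 bases of Ctla2a in gaps. Within them the AP-1 match was kept, at -129 from the start in Ctla2a and -143 in Ctla2b. The GAS match at -157 in Ctla2a was not kept, since the Ctla2b window carried the substitutions C96G and A102G (position counted from 1 at the 5′ end of the Ctla2a window, base of Ctla2a first). Serpina3f held a GAS match at -121.

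GAS was found in the windows of 2 of the 5 genes (Ctla2a and Serpina3f, each in the first of 2 windows). It was found in 8.3% of all 32851 RefSeq windows of the same length. AP-1 was found in 2 of the 5 (Ctla2a and Serpina1c) and in 5.2% of all windows. The RUNX core TGTGGT was found in 4 of the 5, Ctla2a lacking it, and in 16.8% of all windows. The T-box core TCACACC was in none of the 5 and in 3.98% of all windows. Motifs were searched on both strands and none overlapped another in the windows printed. A match is a run of letters and does not show that a factor binds.

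Serpinb9 encodes the mouse serpin that inhibits granzyme B inside cytotoxic cells. Its signal was 6.37 in CIITAtgpIV-/- and 5.34 in WT, a difference of 1.03. The WT level was close to that of the median probe set, with 52.2% of probe sets below it, and 64.5% lay below it in CIITAtgpIV-/-. All 26 probes were assigned to the transcript, on the plus strand of chromosome 13 (33096410 to 33109824). Its RefSeq neighbours include Serpinb9b and Serpinb6b, serpins of the same clade, and neither was listed.

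Serpina3f belongs to a mouse cluster of clade A serpins that has expanded by duplication. Its signal was 5.24 in CIITAtgpIV-/- and 4.15 in WT, a difference of 1.09. Of its 44 probes 22 were assigned to the transcript, and the file's span on chromosome 12 (105452741 to 105480152) covers 27412 bases, longer than the RefSeq gene. With 22 of 44 probes assigned and a span longer than the gene, the signal of this probe set cannot be given to Serpina3f alone. Serpina3g, whose mouse product restrains cathepsins in T cells, is the next RefSeq gene and was not listed.

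Serpina1c is one of the mouse genes for alpha-1-antitrypsin, the plasma inhibitor of neutrophil elastase that the liver secretes. Its signal was 3.83 in CIITAtgpIV-/- and 2.83 in WT, a difference of 1.01. It was the dimmest of the 5 in WT, with 7.62% of probe sets below it, against 22.4% in CIITAtgpIV-/-. All 8 probes of the set were assigned to the transcript, on chromosome 12 (105133136 to 105143160), 309.6 kb from Serpina3f. Its RefSeq neighbours Serpina1a, Serpina1b, Serpina1d and Serpina1e are close copies, none of them listed. Signal could be shared with these copies, which was not tested. The cross-hybridisation column reads FALSE for Serpina1c, as it does for all 5 genes, and does not settle this. None of 10 hepatocyte markers was listed, and at 3.51% of all probe sets fewer than 1 would be.

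Stfa1 encodes a stefin, a cytoplasmic inhibitor of cysteine cathepsins that mouse neutrophils make in quantity. It was the only one of the 5 that was lower in CIITAtgpIV-/-, with a signal of 3.30 against 4.31 in WT, a difference of -1.01. Only 4 of its 8 probes were assigned to the transcript. The file's span on chromosome 16 (36180220 to 36285457) covers 105238 bases, far longer than the RefSeq gene. The RefSeq neighbours Csta2 and Csta3 are cystatin A relatives. With 4 of 8 probes assigned and a span longer than the gene, the signal of this probe set cannot be given to Stfa1 alone. None of 12 granulocyte markers and none of 5 neutrophil proteases was listed, again with fewer than 1 of each at the share of all probe sets.

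Stfa1 had 3 listed neighbours within 1 Mb, all lower in CIITAtgpIV-/-. Cd86, a costimulatory ligand of antigen-presenting cells, had 4.93 in CIITAtgpIV-/- and 6.46 in WT, a difference of -1.53. The peptide transporter gene Slc15a2 had 5.30 in CIITAtgpIV-/- and 6.63 in WT. Polq, a DNA polymerase of end joining repair, had 5.50 in CIITAtgpIV-/- and 6.68 in WT. Among all 789 listed genes 72.6% were lower.

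**Figure D2:**
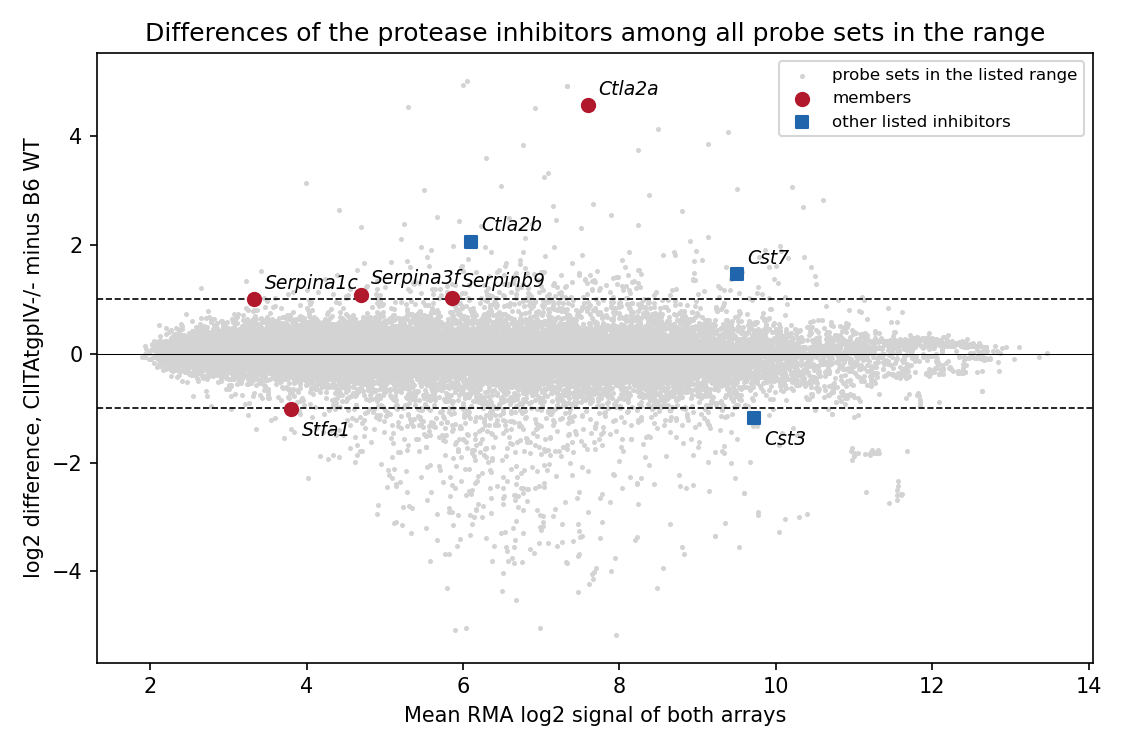
Log2 difference, CIITAtgpIV-/- minus B6 WT (vertical axis), against the mean log2 signal of both arrays (horizontal axis) for the 28560 probe sets in the listed range (grey), the 5 genes (circles) and the other listed inhibitors (squares). Ctla2a at 4.57 lies far from the dashed lines at 2-fold, and the other 4 genes lie next to them.

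The 4 genes near 2-fold lay at the edge of the authors' selection. The smallest listed increase was 1.00 on the log2 scale and the largest increase left out of the list was 0.997, while Serpina1c stood at 1.01. By size of increase Serpina3f, Serpinb9 and Serpina1c ranked 235, 261 and 277 among 279, and Stfa1 ranked 717 among the 724 decreases. Differences over the same range had a robust SD of 0.25, a spread over probe sets and not over replicates.

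Normalization placed 3 of these genes on either side of 2-fold. Serpinb9 lay between 0.94 and 0.97 under median centring, quantile normalization and loess, and Serpina1c between 0.91 and 0.93. Serpina3f lay between 0.99 and 1.01 and passed 2-fold under loess alone. Stfa1 lay between -1.11 and -1.08 and Ctla2a between 4.47 and 4.57, past 2-fold under all 3. Each of the 3 lowered the differences of the 4 genes near 2-fold. That takes size from an increase and adds it to a decrease, so Stfa1 stayed past 2-fold by its direction. It is not shown to be steadier than the other 3.

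**Figure D3:**
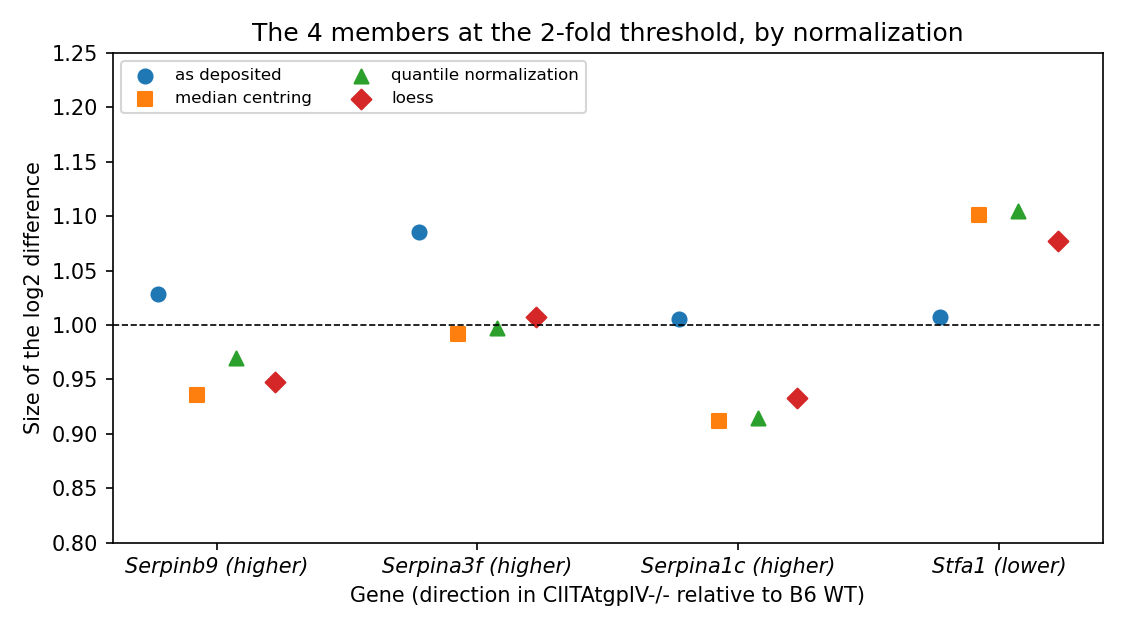
Size of the log2 difference between CIITAtgpIV-/- and B6 WT (vertical axis) for the 4 genes near 2-fold, as deposited and under each other normalization (symbols). Serpinb9 and Serpina1c fall below the dashed 2-fold line under all 3 alternatives, and Stfa1, which was lower in CIITAtgpIV-/-, stays above it. All 3 lowered the signed differences, which shrinks the increases and enlarges the decrease of Stfa1.

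Of 72 further inhibitor genes (serpins, cystatins, stefins, tissue inhibitors of metalloproteases and others) 3 were listed, or 4.17%, near the 3.51% of all probe sets in the range. Of these 2 were higher and 1 was lower, with a median difference of 1.46, beside -1.29 over all 789 listed genes. Listing at 2-fold bounds both medians, so the first only repeats that 2 of 3 were higher and shows no shift of inhibitors. Cst7 encodes cystatin F, a lysosomal inhibitor of cytotoxic cells that restrains the cathepsin which activates granzymes. Its signal was 10.2 in CIITAtgpIV-/- and 8.78 in WT, 2.75-fold higher. Ctla2b, described above, was the other increase. An inhibitor without an entry differed by less than 2-fold only if the listed range covers its probe sets and none of them is an entry without a symbol.

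Cst3 encodes cystatin C, a secreted cathepsin inhibitor abundant in dendritic and other myeloid cells, and was 2.27-fold lower. Its signal was 9.13 in CIITAtgpIV-/- and 10.3 in WT. Of 15 myeloid and dendritic markers 3 were listed and all were lower, with differences between -2.94 and -1.11 on the log2 scale, with a summed linear signal of 38.8 in CIITAtgpIV-/- and 192.3 in WT. Of 9 red cell transcripts 4 were listed, all lower too, with sums of 143.6 in CIITAtgpIV-/- and 1435.4 in WT. Beside these counts, 2.54% of all probe sets in the range and 72.6% of the listed genes were lower. The part of these cells in the values of Cst3 and Stfa1 was not tested, and fewer cells of a type and less RNA a cell cannot be told apart in bulk RNA.

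Among the proteases that these inhibitors meet, 1 of 10 granzyme genes was listed and 0 of 14 cathepsin and legumain genes. At 3.51% of all probe sets fewer than 1 gene of either list would be, so these counts say nothing about the proteases as a group. Gzmm, granzyme M, had 6.26 in CIITAtgpIV-/- and 5.17 in WT, 2.13-fold higher, and Gzmb, the enzyme that Serpinb9 inhibits, was not listed. Of 15 genes of granule delivery and effector state 6 were listed, all higher by 1.64 to 4.08, where 0.977% of all probe sets in the range and 27.4% of the listed genes were higher. Prf1, the pore-forming perforin, was among them, at 9.93 in CIITAtgpIV-/- and 8.04 in WT. Several of these genes were known to be higher when the list was drawn up. None of 12 NK cell markers was listed, where the share of all probe sets would also give fewer than 1. The Ly49 receptor genes were not among these 12, so the count does not cover them. Of 10 genes of double-positive thymocytes, the stage before CD8 cells, 8 were listed, all lower, with differences between -5.05 and -1.19. Of all probe sets in the range 2.54% were lower, and of all listed genes 72.6%. The cell type lists were also drawn up with earlier results of these data known, so their counts are a description. The part of maturation stage in the inhibitor values was not tested.

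The listed genes nearest to each inhibitor in both log2 levels were found by Euclidean distance over the 2 arrays. Samd3 and Pde2a were among the 3 nearest to Ctla2a, at distances of 0.95 and 1.08. Serpinb9 lay nearest to Snord61, Klhl4 and Runx2 at 0.068 to 0.13, and Serpina3f to Art2a, Fbxl21 and Kdm4d at 0.057 to 0.076. Serpina1c lay nearest to Klk1b7-ps at 0.27 and Stfa1 to Angpt1 at 0.14. A likeness over 2 arrays describes levels only.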

How the data were processed

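Per the submitters' processing notes the authors made the deposited log2 signals with GCOS and RMA. RMA is a method that usually corrects background, equalises arrays and summarises probes. The series' design text names Expression Console 1.1, the R package affy 2.9.2 and selection at 2-fold and a false discovery rate of 10%. In the listed range 1003 probe sets were past 2-fold, as many as the authors listed, and none past it was left out. The 2-fold cut alone thus gives the list, and the listed genes are not shown to have passed a false discovery rate. The sources used here name no array type, genome build or annotation release. A table deposited by the authors holds 1003 probe sets with log2 ratio, probe numbers and the assignment coverage in percent, per the file headers. Each ratio equals the CIITAtgpIV-/- minus B6 WT difference of the value table. Its 2 signal columns were not used.

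Gene names came from that table, where 932 probe sets have 1 symbol. Of these, 876 matched the RefSeq table of GRCm38.p6, which changed 160 symbols. Differences, ranks and normalizations were computed with Python 3.11.15 and statsmodels 0.14.6 (loess span 0.3) and tested on simulated data. Promoters were aligned with Biopython 1.88. Genes named are the 5 inhibitors, the 6 listed members of each gene list with the largest difference at most, the 3 nearest genes and listed neighbours within 1 Mb, of which 1 gene is not reported here. The genes, lists and motifs were chosen with earlier results of these data known. Alternatives were 3 normalizations, folds of 1.5 and 3, the signal floor, the mean over probe sets and the authors' ratio.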

Additional observations from a re-analysis of the deposited data

How the results depend on the processing

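All 25 alternative values of the 5 inhibitor differences (median centring, quantile normalization, loess, mean over probe sets, the authors' ratio) kept their direction and moved by at most 0.098, under the robust SD of 0.25. A kept direction is a weak check, since listing required 2-fold. Each gene has 1 probe set, so the mean over probe sets is the main value again. The authors' ratio equals it as well, and only the 3 normalizations could move a value. Of the 4 inhibitors higher by 2-fold, 1 remained under median centring and 1 under quantile normalization (Ctla2a), 2 under loess (with Serpina3f), 1 at 3-fold and 2 past the signal floor. The losses at 3-fold and at the floor follow from those cut-offs. Median centring moves every difference by the same amount. The median difference over the listed range was 0.031 as deposited and -0.062 under median centring. It was -0.018 under quantile normalization and -0.017 under loess. Stfa1 remained under the normalizations, which all lowered its signed difference, and 0 genes were lower at 3-fold or past the floor. In the listed range 914 increases and 1615 decreases passed 1.5-fold, and 85 increases and 346 decreases passed 3-fold, by construction of the threshold. The listed increases of Ctla2b, Cst7 and Crim1 and the decreases of Cst3, Cd86, Slc15a2 and Polq stayed past 2-fold under 3 normalizations chosen after seeing the data, and Gzmm came to 0.99 with median centring. No paired analysis was possible because there is 1 array of each genotype, and no array could be left out. Signals below the floor in both arrays limit the values of Serpina3f, Serpina1c and Stfa1, and background itself was not measured here.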

Other observations

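Ontology terms in the authors' deposited table marked 8 listed genes as peptidase inhibitors, a group picked after its values were seen. It held 3 of the 5 inhibitors described (Serpina3f, Serpina1c and Stfa1) and left out Ctla2a and Serpinb9, the brighter ones. Its other genes were Ctla2b, Cst7, Cst3, Crim1 and Birc5. Crim1, a transmembrane protein with cysteine-rich repeats, had a log2 signal of 9.46 in CIITAtgpIV-/- and 7.64 in WT, 3.52-fold higher. Birc5, which encodes survivin, a protein of cell division and of survival, had 4.96 in CIITAtgpIV-/- and 7.34 in WT, 5.22-fold lower.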
